A study of Homo sapiens with 4 samples.

Results

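Cells of the breast cancer line MDA-MB-231 that kept the most Violet dye after a chase of 12 days were compared with Bulk cells of the same labelled population. The members of the comparison were all genes with a mean of at least 1 CPM (here reads relative to library totals) across the 4 libraries of the series. This held for 14585 of the 58735 genes in the deposited table. Ratios and levels in CPM further on use library sizes scaled by TMM. FAAH2, at a mean of 1.00 CPM, was the last gene inside that limit, and PIH1D2, at 0.999 CPM, the first outside it. Each gene was described by its log2 ratio of Violet over Bulk, and weight was given to genes at which Violet also differed from the other 2 slow-cycling libraries, Claret and eGFP.

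MDA-MB-231 is an established human triple-negative line, derived from a tumour that lacks hormone receptors and HER2 amplification. All 4 groups shared the same history. The cells had been transduced with TetOn-H2BeGFP, a histone H2B-eGFP fusion that doxycycline switches on, received doxycycline at 5 μg/ml over 3 days, were stained with both a Claret and a Violet label, and were then grown without new label for 12 days. Violet, Claret and eGFP are the cells in the top 1% of retention of the respective label, and Bulk cells were sorted without a fluorescence gate, so Bulk may include cells of the 3 gates. Each group is 1 library with 1 RNA preparation, so no difference has a replicate check, and the labels do not state whether the line was a clone or whether the sorts came from separate cultures.

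Groups follow the sample titles, which match the columns of the deposited tables. The treatment field names another sort for every library: it calls the library titled Violet un-gated and the library titled Bulk Claret-sorted. Both cannot be right, and every direction below is that of the libraries as titled.

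A dye or a stable nuclear protein that is not renewed is shared between daughters at each division, so its retention marks cells that have divided little. Cells that leave the cycle usually repress the E2F targets used in DNA replication and the mitotic genes controlled by the MuvB, B-MYB and FOXM1 proteins. Slow-cycling and dormant tumour cells are also studied for stress signalling, in which eIF2α kinases raise translation of ATF4, a bZIP factor of amino-acid synthesis and transport genes, and for AP-1, the dimers of FOS and JUN proteins named in the series' title.

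Violet held 15508179 reads and Bulk 16033922, and at least 10 reads were counted for 16075 and 15203 genes. Mitochondrial genes held 5.06% of the reads in Violet and 4.18% in Bulk. All 7 markers of the line (VIM, CD44, AXL, CAV1, MSN, LGALS1 and TIMP1) were present, with a summed level of 1627 FPKM in Violet and 1326 FPKM in Bulk. Markers of luminal epithelium summed to 14.5 and 15.9 FPKM, with ESR1 at 3 and 7 reads, PGR at 0 in both and CDH1 at 1 and 3. ERBB2, with 1415 and 1453 reads, FOXA1, with 236 and 235, GATA3, with 85 and 95, and EPCAM, with 28 and 47, made up most of that sum. Those of fibroblasts summed to 3.74 and 1.84 FPKM, carried by PDGFRB while LUM and COL1A2 were at 0, those of endothelium to 0.996 and 0.577 FPKM, and those of leukocytes to 0.156 and 0.0953 FPKM.

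The 2 standard markers of proliferation went with the label. MKI67, which encodes the Ki-67 antigen of cycling cells, had 6778 reads in Bulk against 995 in Claret, 689 in eGFP and 915 in the Violet library, and its log2 ratio of Violet over Bulk was -2.89 (95% exact interval -2.99 to -2.79). TOP2A, the topoisomerase that untangles replicated chromosomes, had 14220, 3399, 2487 and 3330 reads in the same order, a log2 ratio of -2.10 (-2.15 to -2.04). In both genes Bulk lay far above the other 3 libraries. In a bulk RNA sample fewer cycling cells and less of these RNAs per cell cannot be told apart.

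Violet differed from Bulk across a large part of the transcriptome. A gene was called when the log2 ratio was at least 1 in size and the exact binomial test on the reads of the 2 libraries gave an adjusted p under 0.05. That test compares the libraries, not the conditions, and like all intervals here it covers counting error only. Called higher in Violet were 1641 genes (11.3% of the 14585), and called lower were 1023 (7.01%), together 18.3%. The balance depended on the filter, since at a mean of at least 10 CPM 608 were called higher and 726 lower. On the log2(FPKM + 1) scale 533 were higher and 743 lower by a difference of at least 1, counted without the test. Among protein-coding genes 9.64% were called higher and 7.31% lower. The standard deviation of the log2 ratio over genes was 0.86, and 53.9% of genes differed by under 0.5. Past 4-fold, 399 genes were higher and 182 lower, and past 8-fold 86 and 19. The genes called higher were on the whole sparsely read, since together they held 2.39% of the reads in Bulk and 6.87% in Violet, whereas those called lower went from 10.5% to 3.92%. Of the genes called higher, 81 had 3 reads or fewer in Bulk, 16 of them none.

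**Figure D1:**
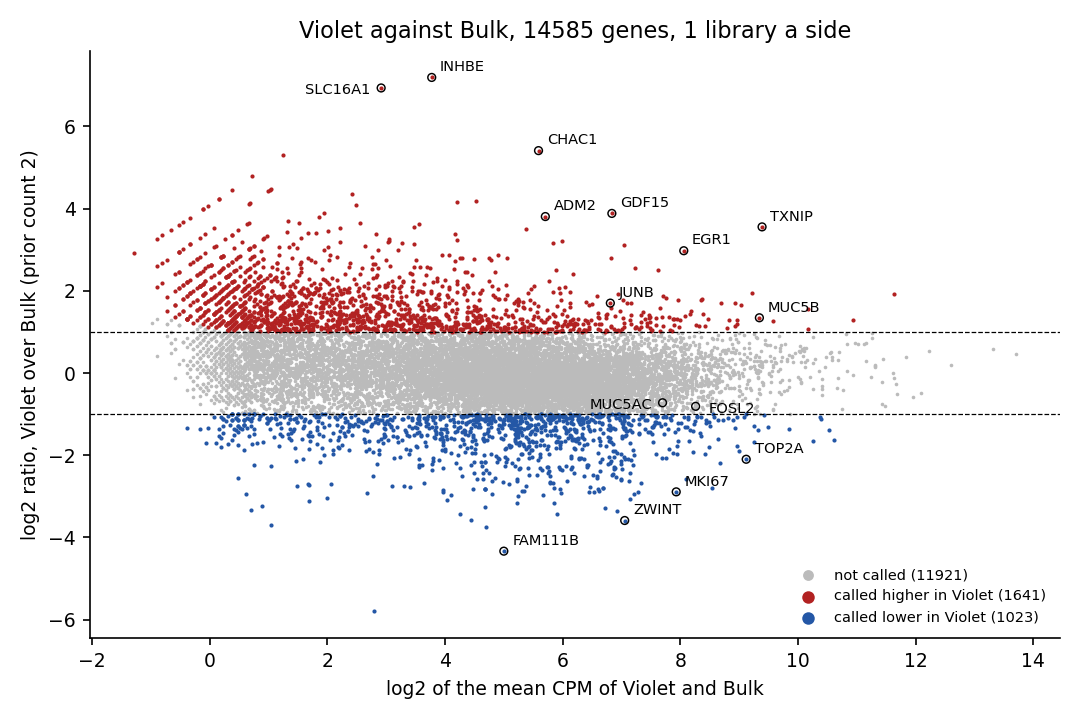
Log2 ratio of Violet over Bulk (prior count 2) against the log2 mean CPM of the 2 libraries, 1 point a gene. Red points are the 1641 genes called higher and blue the 1023 called lower, dashed lines mark a log2 ratio of 1 and -1, and the circled genes are named in the text: INHBE, SLC16A1 and CHAC1 lie highest, and FAM111B and ZWINT lie among the lowest.

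The 6 genes with most reads in Violet were MT-CO1, EEF1A1, MT-ND4, MT-CO2, MT-RNR2 and PLEC, of which only MT-RNR2 was called. MT-CO1, a cytochrome oxidase subunit, had 175876 reads in Bulk and 245081 in Violet (0.48), and the elongation factor EEF1A1 129160 and 194241 (0.59).

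Among protein-coding genes with the largest increases, INHBE (ENSG00000139269, chr12:57452323-57459280), the inhibin beta E chain, had 1 read in Bulk against 620 in Claret, 615 in eGFP and 431 in the Violet library. Its log2 ratio of Violet over Bulk was 7.19, with a counting interval of 6.26 to 14.05. CHAC1 (ENSG00000128965, chr15:40952962-40956519), which degrades glutathione, had 33, 1810, 1652 and 1488 reads, a log2 ratio of 5.41 (4.99 to 6.04). For both genes Violet stood far nearer to Claret and eGFP than to Bulk, and somewhat below them.

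SLC16A1 (ENSG00000155380, chr1:112911847-112957013), the lactate and pyruvate carrier MCT1, had 0 reads in Bulk against 372 in Claret, 331 in eGFP and 238 in the Violet library. Set against the 3 reads that a count of 0 allows in Bulk, it was at least 79.1-fold higher in Violet. MOV10L1, a helicase of the piRNA pathway, had 0, 108, 56 and 75 reads and was 24.9-fold higher on the same basis (log2 interval from 4.31). IL21R, the receptor of interleukin 21, had 0, 68, 68 and 52 reads and was 17.3-fold higher (log2 interval from 3.76). None of the 3 was detectable in Bulk at this depth, while each of the other libraries had at least 52 reads.

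The remaining genes with the largest increases were mostly signalling proteins. The stress-induced nuclear protein NUPR1 had 36 reads in Bulk and 688 in Violet (log2 ratio 4.18), and the netrin receptor UNC5B 29 and 551 (4.16). The hormone-like ligands GDF15, with 227 and 3383 reads (3.88), and ADM2, with 108 and 1540 (3.81), were better read. SPX, a neuropeptide gene, had 8 and 168 reads (4.09), and PYY, the gut hormone peptide YY, 1 and 63, a log2 ratio of 4.45 with an interval of 3.44 to 11.30. TXNIP, the thioredoxin-interacting protein that restrains glucose uptake, was the most abundant of the group, with 1657 reads in Bulk against 26000 in Claret, 27931 in eGFP and 19542 in the Violet library (3.55).

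Among protein-coding genes with the largest decreases, FAM111B (ENSG00000189057, chr11:59107185-59127410), a replication-associated protease, had 962 reads in Bulk against 77 in Claret, 55 in eGFP and 46 in the Violet library, and its log2 ratio of Violet over Bulk was -4.33 (-4.85 to -3.96). The atypical E2F repressor E2F8 had 766 reads in Bulk and 55 in Violet (-3.76), and the kinetochore protein ZWINT 3869 and 321 (-3.59). RAD54L of recombination repair had 636 and 52 reads (-3.57), the checkpoint adaptor CLSPN 1726 and 159 (-3.43), and the B-MYB gene MYBL2 3494 and 342 (-3.35). RRM2, the regulated subunit of ribonucleotide reductase, had 3007 and 310 reads (-3.27), ZNF367 732 and 75 (-3.26), MCM10 of replication initiation 1063 and 117 (-3.17), the condensin subunit NCAPH 1631 and 182 (-3.15), and the flap endonuclease FEN1 3989 and 476 (-3.07).

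ATF4 and CHOP targets stood out among the higher genes. Of 34 listed targets of these stress factors, 32 were kept and 26 were called higher, none lower, against 11.3% and 7.01% of all genes. Their median log2 ratio of Violet over Bulk was 2.01, beside 0.00 over all genes kept, and the same list had a median of 2.07 in Claret and 1.82 in eGFP over the same Bulk library. All 32 ratios were above 0. Beside INHBE, CHAC1, NUPR1 and GDF15, the asparagine synthetase ASNS had 26 reads in Bulk and 345 in Violet (3.63), cystathionine gamma-lyase CTH 54 and 528 (3.24), the pseudokinase TRIB3 451 and 3136 (2.79), and the mitochondrial PEP carboxykinase PCK2 683 and 4034 (2.56). The pathway's own factors were called higher too: ATF4 had 3629 reads in Bulk and 11767 in Violet (1.69), and DDIT3, which encodes CHOP, 101 and 426 (2.05).

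Promoters of genes in this list were searched for the site of C/EBP and ATF dimers, written TGATGNAA, on both strands. The promoter was the stretch from 250 bases before to 50 after the RefSeq start (GRCh38.p14), and it was found for 10353 of the 14585 genes. A match stood in 1.71% of all these promoters, in 2.84% of the 986 of genes called higher, and in 5 of the 26 promoters of the ATF4 and CHOP list (19.2%). These are descriptions of letters, not of bound sites. The 4 genes with a match before the start and the ratio bound farthest from 0 are shown, chosen after their values were seen, because they let the shared core be read beside the change. Capitals mark the match, which appears in reverse complement in CHAC1 and FGF21.
CHAC1: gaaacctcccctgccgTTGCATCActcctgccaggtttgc
ASNS: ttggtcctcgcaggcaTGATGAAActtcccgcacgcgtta
ATF3: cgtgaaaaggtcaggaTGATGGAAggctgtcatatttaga
FGF21: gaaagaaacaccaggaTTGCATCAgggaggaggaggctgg
The windows are chr15:40953246-40953285 (plus strand), chr7:97872453-97872492 (minus), chr1:212565200-212565239 (plus) and chr19:48755454-48755493 (plus). The matches begin at positions -209, -68, -191 and -54 from the start. Reads went from 33 in Bulk to 1488 in Violet for CHAC1, from 26 to 345 for ASNS, and from 34 to 318 for the bZIP factor ATF3. The hormone gene FGF21 had 0 reads in Bulk and 13 in Violet, with 30 in Claret and 27 in eGFP. Violet was 4.32-fold higher when set against 3 reads in Bulk.

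The cytosolic aminoacyl-tRNA synthetases, which charge tRNAs with amino acids, split in the comparison with Bulk. Of 20 enzymes 7 were called higher and none lower, beside 11.3% and 7.01% of all genes, and their median log2 ratio was 0.62. SARS had 3856 reads in Bulk and 14997 in Violet (1.96), CARS 926 and 3176 (1.77), AARS 3054 and 9970 (1.70), and GARS 2375 and 6785 (1.51). At the other end FARSA, at -0.99, and HARS, at -0.77, fell short of the log2 limit of 1 in size and so were not called. ER chaperones, the folding proteins induced by the other arms of the unfolded-protein response, had a median of -0.12, with 4 of 21 (19.0%) called higher and none lower. Those 4 were the sensor ERN1 (2.11), HERPUD1 (1.37), XBP1 (1.13) and DNAJB9 (1.05), whereas HSPA5 was at 0.50, HSP90B1 at 0.28 and CALR at -0.47, none of them called.

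Replication genes were lower as a block. Of 42 licensing and fork genes, 41 were called lower and none higher, beside 7.01% and 11.3% of all genes. Their median log2 ratio was -2.27, and in Claret and eGFP it was -2.15 and -2.58. Beside the genes named above, the sliding clamp PCNA had 3325 reads in Bulk against 945 in Claret, 789 in eGFP and 810 in the Violet library (-2.04), and the helicase subunit MCM3 4822, 1374, 1159 and 1228 (-1.98). POLA2, the only member not called, had 98 reads in Bulk and 53 in Violet (-0.87).

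In promoters, the E2F element TTTNNCGC was present in 10.5% of all, in 16.8% of the 758 of genes called lower, and in 20 of the 35 of replication genes (57.1%). The 4 replication genes with such a match before the start and the ratio bound farthest from 0 were GINS2, E2F1, ORC6 and MCM7.
GINS2: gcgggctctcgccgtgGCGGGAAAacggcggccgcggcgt
E2F1: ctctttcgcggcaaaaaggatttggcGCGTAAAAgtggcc
ORC6: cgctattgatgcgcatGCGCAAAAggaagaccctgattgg
MCM7: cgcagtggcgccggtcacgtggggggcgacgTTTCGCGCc
They lie at chr16:85688962-85689001 (minus strand), chr20:33686386-33686425 (minus), chr16:46689520-46689559 (plus) and chr7:100101398-100101437 (minus). Capitals mark the match nearest the start, in reverse complement in GINS2, E2F1 and ORC6. The E2F1 promoter held 4 matches, and in its window a match in the written orientation overlaps the capitals. GINS2, a subunit of the replicative helicase complex, had 555 reads in Bulk and 50 in Violet (-3.43), and E2F1, the activator itself, 1478 and 258 (-2.51). The origin subunit ORC6 had 1331 and 258 (-2.36), and the helicase subunit MCM7 10611 and 2333 (-2.19).

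Mitosis genes were lower in every case. All 40 members were called lower, where 7.01% of all genes were. Their median log2 ratio was -2.22, beside -2.26 in Claret and -2.54 in eGFP. The FOXM1 factor had 4159 reads in Bulk against 571 in Claret, 418 in eGFP and 542 in the Violet library (-2.94), the kinesin KIF20A 2418, 329, 287 and 326 (-2.89), and the survivin gene BIRC5 2841, 478, 272 and 410 (-2.79). The smallest decrease was that of the cytokinesis factor ECT2, with 3497 reads in Bulk and 1708 in Violet (-1.04).

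The cell cycle homology region element, written TTTGAA, was present in 9.39% of all promoters, in 18.9% of those of genes called lower and in 24 of the 33 of mitosis genes (72.7%). The same element was in 1 of the 35 replication promoters, and the E2F element in 3 of the 33 mitosis promoters. The 4 mitosis genes with a match before the start and the ratio bound farthest from 0 are shown with the match in capitals, in reverse complement in ZWINT.
ZWINT: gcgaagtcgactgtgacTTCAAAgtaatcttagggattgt
MKI67: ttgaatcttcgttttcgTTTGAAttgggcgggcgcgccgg
SPC25: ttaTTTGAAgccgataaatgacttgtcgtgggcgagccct
CDC20: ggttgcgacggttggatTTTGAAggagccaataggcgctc
The windows are chr10:56361268-56361307 (minus strand), chr10:128126430-128126469 (minus), chr2:168890641-168890680 (minus) and chr1:43358899-43358938 (plus). The printed matches begin at positions -31, -29, -247 and -65 from the start, so that of SPC25 lies near the far edge of the stretch searched. The kinetochore subunit SPC25 had 461 reads in Bulk and 53 in Violet (-3.08), and the anaphase activator CDC20 2707 and 372 (-2.86). No match to a different motif of those searched overlapped the printed matches in any of the windows.

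Inhibitors of cyclin-dependent kinases did not share a direction. CDKN1C, the p57 inhibitor, was called higher, with 133 reads in Bulk against 392 in Claret, 326 in eGFP and 328 in the Violet library (1.29). CDKN2C, the p18 inhibitor, was called lower, with 1314, 399, 277 and 365 reads (-1.85). CDKN1A, the p21 gene, had 1375 reads in Bulk and 2395 in Violet (0.80) and CDKN1B, the p27 gene, 1067 and 1175 (0.14), neither called. CDKN2A and CDKN2B were below the CPM limit. Among 14 polyadenylated replacement and linker histone genes kept, 6 (42.9%) were called lower and 2 (14.3%) higher, beside 7.01% and 11.3% of all genes. The lower ones were led by the damage-linked variant H2AFX (3832 reads in Bulk, 815 in Violet, -2.23) and H2AFZ (5668 and 2199, -1.37).

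**Figure D2:**
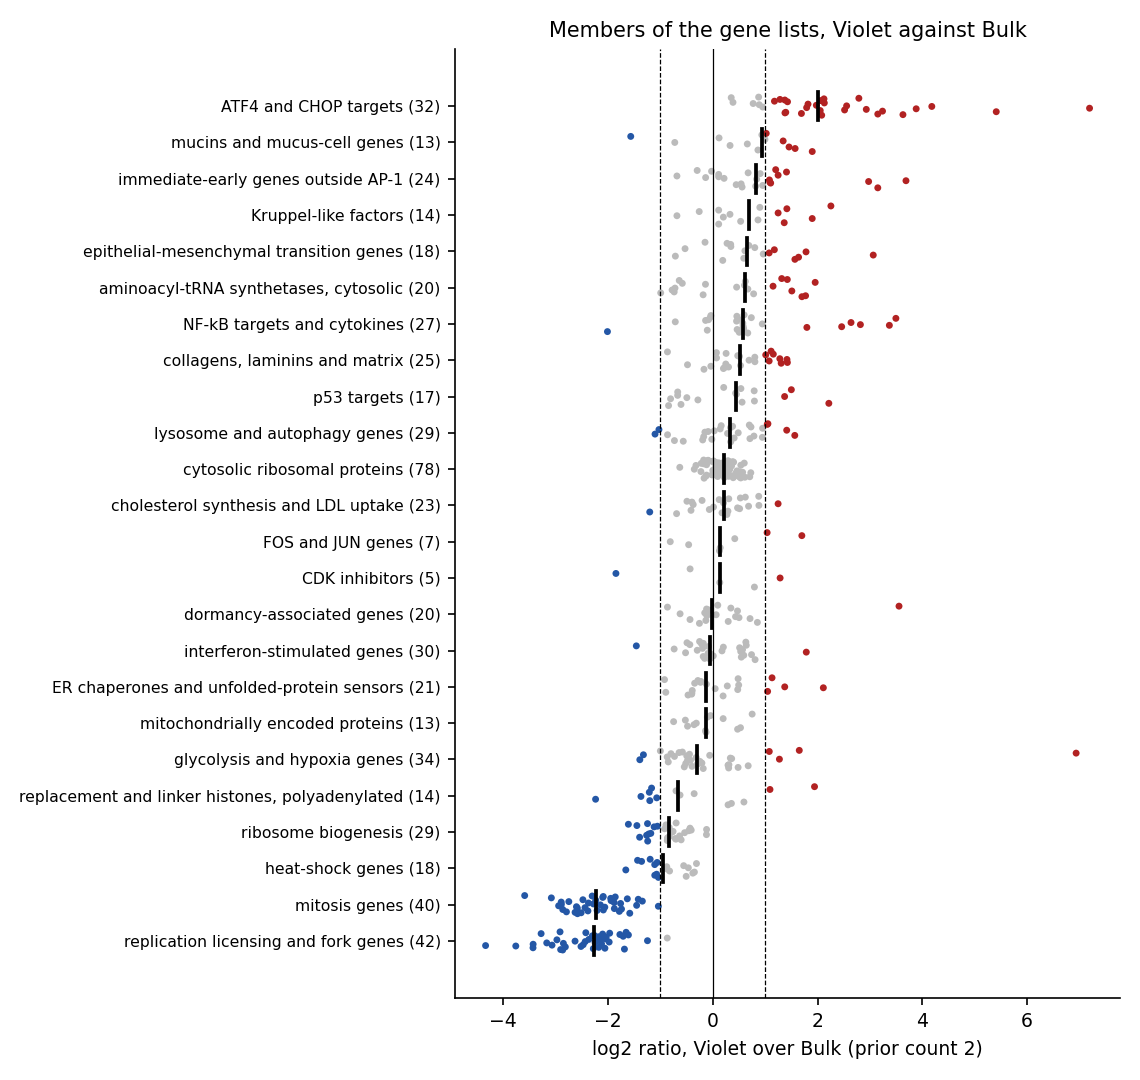
Log2 ratio of Violet over Bulk (prior count 2) for each member of 24 gene lists, 1 point a gene, with the number of members kept in parentheses and the list median as a black bar. Red and blue points are genes called higher and lower: replication and mitosis genes lie around medians of -2.27 and -2.22, and ATF4 and CHOP targets around 2.01.

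The FOS and JUN genes, the subunits of AP-1, were read gene by gene because the series' title names this factor. JUNB had 831 reads in Bulk against 3442 in Claret, 3740 in eGFP and 2713 in the Violet library, and its log2 ratio of Violet over Bulk was 1.70 (1.59 to 1.82). JUND had 1029, 2588, 2499 and 2121 reads, a ratio of 1.04. These 2 were called higher, and the other 5 of the 7 were not called, beside 11.3% of all genes called higher and 7.01% lower.

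JUN had 4391 reads in Bulk and 5896 in Violet (0.42), FOS 653 and 716 (0.13), and FOSB 222 and 246 (0.14). The FOS-like subunits had ratios below 0, FOSL1 with 5964 and 4350 reads (-0.46) and FOSL2 with 6155 and 3520 (-0.81). The family's median ratio was therefore 0.14. In Claret and eGFP, FOSB had 400 and 415 reads and FOS 994 and 1052, so both stood closer to Bulk in Violet than in the other slow-cycling libraries, and the direct log2 ratios of Violet over Claret and over eGFP were -0.59 and -0.74 for FOSB and -0.37 and -0.55 for FOS.

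Other immediate-early genes are switched on within minutes by growth factor and stress signals. Of 28 listed, 24 were kept, 9 were called higher (11.3% of all genes were) and none lower, with a median log2 ratio of 0.83. EGR1, a zinc-finger factor, had 947 reads in Bulk against 10649 in Claret, 11526 in eGFP and 7478 in the Violet library (2.97), and EGR2 4, 92, 81 and 75 (3.69). The orphan receptor NR4A1 had 42 reads in Bulk and 115 in Violet (1.41), and the ERK phosphatase DUSP6 4451 and 9516 (1.09). KLF2, at -0.68, and SRF, at -0.30, were not called. EGR1 in Violet lay clearly above Bulk and below both Claret and eGFP, by log2 ratios of -0.41 and -0.62.

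The AP-1 motif TGANTCA stood in 4.76% of all promoters, in 7.51% of those of genes called higher and in 2.64% of those of genes called lower. Promoters of higher genes also held fewer CG pairs, with a median of 21 beside 26 over all and 27 for lower genes, and the part of base composition in the share of matches was not tested. The 4 protein-coding genes called higher with a match before the start and the ratio bound farthest from 0 are printed with the match in capitals.
PYY: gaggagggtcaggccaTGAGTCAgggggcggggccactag
IL1A: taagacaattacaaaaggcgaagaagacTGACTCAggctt
ENTPD2: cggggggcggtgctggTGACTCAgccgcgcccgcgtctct
ATG9B: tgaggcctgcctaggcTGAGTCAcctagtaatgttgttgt
They lie on the minus strand at chr17:44004478-44004517, chr2:112784494-112784533, chr9:137054211-137054250 and chr7:151024521-151024560. The cytokine gene IL1A had 18 reads in Bulk and 205 in Violet (3.37), and the autophagy lipid scramblase gene ATG9B 4 and 56 (3.28). The ectonucleotidase ENTPD2 had 0 reads in Bulk and 25 in Violet, 8.31-fold higher when set against 3 reads in Bulk.

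Kruppel-like factors, zinc-finger proteins of which several restrain growth, had a median log2 ratio of 0.70, with 5 of 14 called higher and none lower, beside 11.3% and 7.01% of all genes. They were KLF9 (86 reads in Bulk, 419 in Violet, 2.26), KLF15 (9 and 39, 1.90), KLF7 (191 and 514, 1.42), KLF11 (158 and 411, 1.36) and KLF4 (483 and 1153, 1.25). p53 targets were mixed. BBC3, the PUMA gene, at 2.22, TP53INP1 at 1.5 and GADD45A at 1.37 were called higher and these were 3 of 17 (17.6%), with none called lower, while MDM2, at -0.67, BAX, at -0.60, and FAS, at -0.80, were not called.

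Inflammatory, matrix and epithelial-mesenchymal genes were higher in part. Among 27 NF-kB targets and cytokines kept, 6 (22.2%) were called higher and 1 (3.70%) lower, beside 11.3% and 7.01% of all genes (median 0.58). The prostaglandin synthase PTGS2 had 105 reads in Bulk against 1153 in Claret, 1381 in eGFP and 1207 in the Violet library (3.50), the interleukin IL1B 16, 115, 104 and 125 (2.82), and the adhesion molecule ICAM1 139, 618, 795 and 776 (2.46). The chemokine CCL2 was called lower, with 1779, 389, 511 and 442 reads (-2.01). NFKBIA, at -0.14, and TNFAIP3, at -0.03, both feedback inhibitors of NF-kB, were not called.

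Of 25 collagens, laminins and other matrix genes, 8 (32%) were called higher and none lower (median 0.51), against 11.3% and 7.01% of all genes, among them LAMA5 with 18054 reads in Bulk and 43984 in Violet (1.28), COL6A2 with 2134 and 5295 (1.31) and FN1 with 11680 and 24708 (1.08). Of 18 epithelial-mesenchymal genes kept, 6 (33.3%) were called higher and none lower (median 0.65), against the same shares of all genes. The members called higher included both epithelial and mesenchymal genes: the epithelial splicing factor ESRP1 had 12 reads in Bulk and 115 in Violet (3.06), the hemidesmosome integrin ITGB4 2327 and 8020 (1.78), and the tight-junction genes CLDN7 172 and 541 (1.64) and CLDN1 183 and 548 (1.57), beside the mesenchymal repressor SNAI1 (1.18) and FN1. The epithelial adhesion gene EPCAM had the lowest ratio, with 47 and 28 reads (-0.71), and like VIM, at 0.34, and ZEB1, at 0.27, was not called. CDH1 and GRHL2, also epithelial, were below the CPM limit.

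Genes that other work has linked to tumour dormancy were called in 1 case. Of 20 kept, only TXNIP was called, as higher (5%), beside 11.3% of all genes called higher and 7.01% lower. The list's median log2 ratio was 0.00. It lay between -0.08 and 0.08 under the other settings of scaling, filter, prior count and GC correction, with FPKM and the treatment field left out. NR2F1, an orphan receptor used as a dormancy marker, had 1699 reads in Bulk against 1270 in Claret, 1351 in eGFP and 1533 in the Violet library (-0.15), SOX9 2122, 1889, 1632 and 2019 (-0.08), and the kinase gene DYRK1B 177, 304, 315 and 292 (0.71).

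Heat-shock and ribosome biogenesis genes were called lower in part, and ribosomal protein genes in no case, beside 7.01% of all genes. All 18 heat-shock genes had ratios below 0, with a median of -0.96, and 9 were called lower, led by HSP90AA1 (29299 reads in Bulk, 9308 in Violet, -1.66), HSPH1 (5509 and 2044, -1.43) and HSPE1 (680 and 265, -1.36). Of 29 ribosome biogenesis genes 10 were called lower and none higher (median -0.83), among them nucleolin NCL with 14649 and 5587 reads (-1.39). None of the 78 cytosolic ribosomal protein genes was called, and their ratios ran from -0.63 to 0.73 with a median of 0.21.

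Metabolic and organelle genes were mostly not called. Of 34 glycolysis and hypoxia genes 4 (11.8%) were called higher and 2 (5.88%) lower, near the 11.3% and 7.01% of all genes. Glycolysis and hypoxia genes had a median of -0.30, with LDHA (33794 reads in Bulk, 12923 in Violet, -1.39) and PGAM1 (16231 and 6509, -1.32) lower, and VEGFA (3990 and 12575, 1.65), NDRG1 (7020 and 17010, 1.27), SLC2A3 and SLC16A1 higher. Of 23 cholesterol genes, 1 was called each way, MSMO1 at 1.25 and EBP at -1.20. Of 29 lysosome and autophagy genes 4 (13.8%) were called higher and 2 (6.9%) lower, near the shares of all genes. Of 30 interferon-stimulated genes OAS3 was called lower (-1.46) and IFITM1, with 7 and 29 reads, higher (1.79). None of the 13 mitochondrially encoded protein genes was called, and the ribosomal RNA gene MT-RNR2 had 20937 reads in Bulk against 109102 in Claret, 107948 in eGFP and 79177 in the Violet library (1.92), a value that also depends on how ribosomal RNA was removed, which was not tested.

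The second question was where the Violet difference from Bulk departs from that of the other slow-cycling cells. Since all 3 ratios share the Bulk library, it cancels, and the direct comparisons with Claret and eGFP are the test of that difference. They were narrow. The standard deviation of the log2 ratio over genes was 0.29 for Violet over Claret and 0.30 for Violet over eGFP, and 93.0% and 91.9% of genes differed by under 0.5. Violet was called higher than Claret at 84 genes (0.576%) and lower at 35 (0.24%), together 0.816% of genes. It was called higher than eGFP at 106 (0.727%) and lower at 42 (0.288%), together 1.01%.

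At 20 genes Violet was called above both Claret and eGFP (0.137%), and at 10 it was called below both (0.0686%). Claret stood apart from the other 2 slow-cycling libraries in the same way at 9 genes above and 20 below, and eGFP at 13 and 17, so a count of this size was not particular to Violet. Of the 20 genes above, 8 were protein coding and the median was 44 reads in Violet. Of the 10 below, 4 were protein coding, and none had 100 reads in Violet. With an assumed coefficient of variation between cultures of 0.1 in edgeR's exact test, only 3 remained above (MUC5B, AP001000.1 and RPL29P11) and 2 below (SMN1 and XAGE1B). At 0.2, RPL29P11 and XAGE1B remained.

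**Figure D3:**
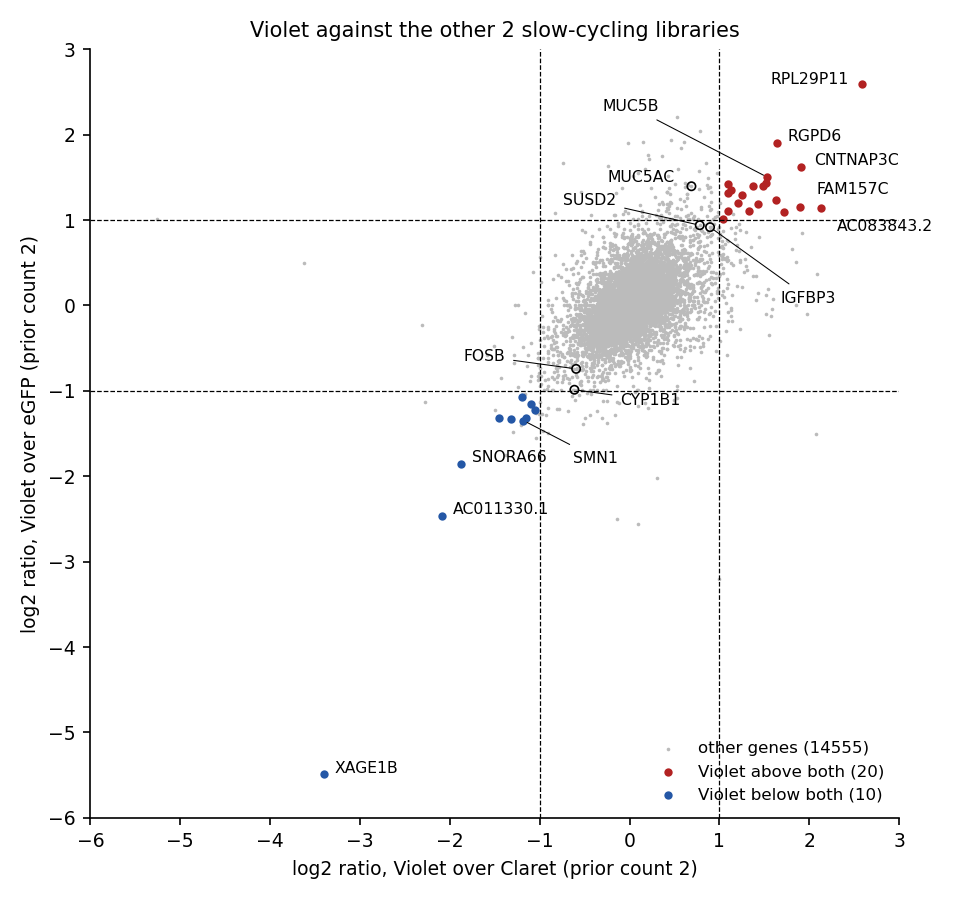
Log2 ratio of Violet over Claret (horizontal) and of Violet over eGFP (vertical), both with a prior count of 2, 1 point a gene. The 20 genes called above both libraries are red and the 10 called below both are blue, dashed lines mark 1 and -1, and the circled genes passed a limit of 1.5-fold in both comparisons but not 2-fold. Both axes share the Violet library, so points lie along the diagonal by construction.

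MUC5B was the best-read gene among those set apart. MUC5B (ENSG00000117983, chr11:1223066-1262172, plus strand) encodes a gel-forming mucin of airway and glandular mucus. It had 5790 reads in Bulk against 5471 in Claret, 5227 in eGFP and 14741 in the Violet library, or 367, 323, 329 and 933 CPM. The 3 other libraries lay close together and Violet lay alone above them. The log2 ratio was 1.34 over Bulk (1.30 to 1.39), 1.53 over Claret and 1.5 over eGFP, and per length the gene stood at 20.0 FPKM in Bulk and 49.4 in Violet. Only 3.56% of its 31-base words occur in other annotated genes. Its antisense gene MUC5B-AS1 shares 2.67% of these words. Whether the counting used strand is not given in the sources used here, so reads of that shared stretch cannot be told apart.

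Its neighbour MUC5AC (chr11:1157953-1201138), the other secreted mucin of the cluster, had 4077 reads in Bulk against 1648 in Claret, 944 in eGFP and 2475 in the Violet library. Violet was thus above both slow-cycling libraries, by 0.69 over Claret and 1.40 over eGFP, but below Bulk, by a log2 ratio of -0.72. Of the 27 other genes kept within 500 kb of MUC5B, none was called against Claret and only MUC5AC against eGFP, and their median log2 ratios were -0.02 and 0.01. MUC6, with 78 reads in Violet, 88 in Claret and 78 in eGFP, and TOLLIP, with 1441, 1534 and 1408, had direct log2 ratios between -0.07 and 0.04. The sparsely read lincRNA AC139749.1, between MUC6 and MUC5AC, had 26 reads in Violet, 15 in Claret and 23 in eGFP. Its log2 ratios of Violet were 0.81 over Claret and 0.17 over eGFP, neither called.

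**Figure D4:**
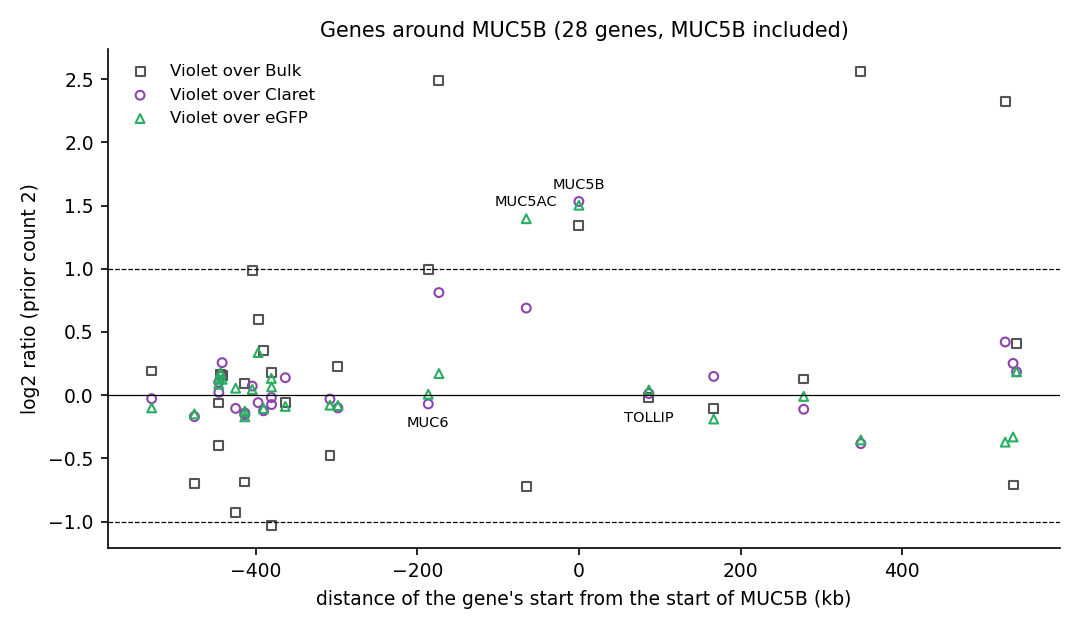
Log2 ratio of Violet over Bulk (squares), over Claret (circles) and over eGFP (triangles), with a prior count of 2, for MUC5B and the 27 other genes kept around it, by the distance of each gene's start from the start of MUC5B in kb. Over Claret and eGFP, MUC5B stands at 1.53 and 1.5 while most neighbours lie near 0, and MUC5AC stands at 0.69 and 1.40.

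Across the 32 listed mucins and mucus-cell genes, 13 were kept and 5 (38.5%) were called higher than Bulk and 1 (7.69%) lower (median 0.94), beside 11.3% and 7.01% of all genes. AGR2, a disulfide isomerase needed for mucin folding, had 220 reads in Bulk against 847 in Claret, 753 in eGFP and 828 in the Violet library (1.90), so it was higher in Violet than Bulk but at the level of the other slow-cycling libraries. FCGBP, a mucus-associated protein gene, was read 49, 97, 141 and 150 times (1.57). The trefoil peptide gene TFF3 had 73, 98, 68 and 142 reads, with direct log2 ratios of 0.63 over Claret and 1.05 over eGFP. SPDEF, a factor of goblet-cell differentiation, had 263, 336, 233 and 287 reads (0.12). Against both slow-cycling libraries 10 of the 13 ratios were above 0 in each comparison, with medians of 0.25 and 0.28, and 19 of the listed genes, MUC2, MUC4 and MUC16 among them, were below the CPM limit.

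Other genes above both libraries were less well read or share sequence with copies. SCART1, a scavenger receptor gene with 1.4% shared sequence, had 22 reads in Bulk against 70 in Claret, 65 in eGFP and 141 in the Violet library, log2 ratios of 1.09 and 1.10 over the slow-cycling libraries. ISM1, a secreted angiogenesis inhibitor, had 41, 14, 14 and 40 reads, so Violet stood with Bulk. WFIKKN1, the gene of a secreted protein with protease-inhibitor domains, had 18, 18, 20 and 45. The highest direct ratios, 2.58 over Claret and 2.59 over eGFP, were those of RPL29P11, a processed ribosomal protein pseudogene with 62, 28, 26 and 166 reads, of whose sequence 79.4% occurs in other genes.

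Sharing of sequence between copies limits several of these calls, since the handling of reads that match more than 1 gene is not given in the sources used here. Of the genes set apart, RGPD6 (100% shared), CNTNAP3C (96.0%), SPDYE6 (95.4%), PDZK1 (61.3%), FAM157C (83.6%), TNXA (91.3%) and AP001000.1 (79.1%) above, and AC011330.1 (99.0%), SMN1 (89.6%), TMEM110-MUSTN1 (89.4%) and XAGE1B (76.2%) below, share most of their sequence with other annotated genes, FAM157C with several of them. Summed over CNTNAP3, CNTNAP3B and CNTNAP3C, the total came to 249 in Bulk against 566 in Claret, 345 in eGFP and 517 in the Violet library, and the log2 ratios of Violet were -0.03 over Claret and 0.59 over eGFP.

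Among the genes below both libraries, SMN1 (chr5:70925030-70953942), a subunit of the complex that assembles splicing ribonucleoproteins, had 617 reads in Bulk against 212 in Claret, 223 in eGFP and 86 in the Violet library. Its near-identical copy SMN2 had 124, 110, 116 and 100. The sum of both, 741, 322, 339 and 186 reads, gave log2 ratios of Violet of -1.99 over Bulk, -0.68 over Claret and -0.85 over eGFP, so the summed difference no longer reached 2-fold against the slow-cycling libraries. XAGE1B, a cancer-testis antigen gene on chromosome X, had 93, 122, 493 and 9 reads, and with its copy XAGE1A 103, 139, 513 and 17. Violet was the lowest of the 4 libraries for both sums, and the summed ratios of XAGE1A and XAGE1B were -2.79 over Claret and -4.75 over eGFP. GPR15, a chemoattractant receptor with no shared sequence, had 28, 46, 45 and 19 reads (-1.10 and -1.16), and SNORA66, a small nucleolar RNA inside a host gene, 28, 41, 38 and 9.

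A lower limit of 1.5-fold, with genes named after their values were seen, gave 60 genes above both slow-cycling libraries (0.411%) and 21 below (0.144%), where Claret gave 16 and 38 and eGFP 31 and 41. Secreted proteins were among the better-read genes above. IGFBP3, which binds insulin-like growth factors, had 1122 reads in Bulk against 1327 in Claret, 1224 in eGFP and 2301 in the Violet library, log2 ratios of 1.03 over Bulk, 0.90 over Claret and 0.92 over eGFP. SUSD2, a surface protein, had 778, 1119, 938 and 1792. The hyaluronan-degrading protein CEMIP had 508, 489, 486 and 913 reads, and the lipase inhibitor ANGPTL4 319, 245, 278 and 467. In each of these genes Violet was the highest of the 4 libraries.

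The salivary-type cystatins, secreted inhibitors of cysteine proteases clustered on chromosome 20, were above as a group of 3. CST4 had 1374 reads in Bulk against 1987 in Claret, 2059 in eGFP and 3126 in the Violet library, CST1 1802, 1576, 1356 and 2396, and CST2 49, 35, 24 and 63. Their direct log2 ratios were 0.76 and 0.61, 0.71 and 0.83, and 0.91 and 1.33. They share sequence with each other (48.7% for CST4, 35.9% for CST1 and 17.7% for CST2), so the 3 are not independent.

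Of the 21 genes below both libraries at 1.5-fold, 5 were called higher than Bulk in Violet, 6 were called lower and 10 were not called. CYP1B1, a cytochrome P450 of oestrogen and hydrocarbon metabolism, had 161 reads in Bulk against 821 in Claret, 996 in eGFP and 499 in the Violet library, log2 ratios of 1.62 over Bulk, -0.61 over Claret and -0.99 over eGFP. The anti-apoptotic BCL2A1 had 26, 120, 117 and 58, and PAPPA2, a protease of IGF-binding proteins, 10, 223, 218 and 136. FOSB, described above, belonged to these genes. CCNE1, the cyclin that starts S phase, was called lower than Bulk, with 116, 65, 62 and 33 reads, lowest in Violet.

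**Figure D5:**
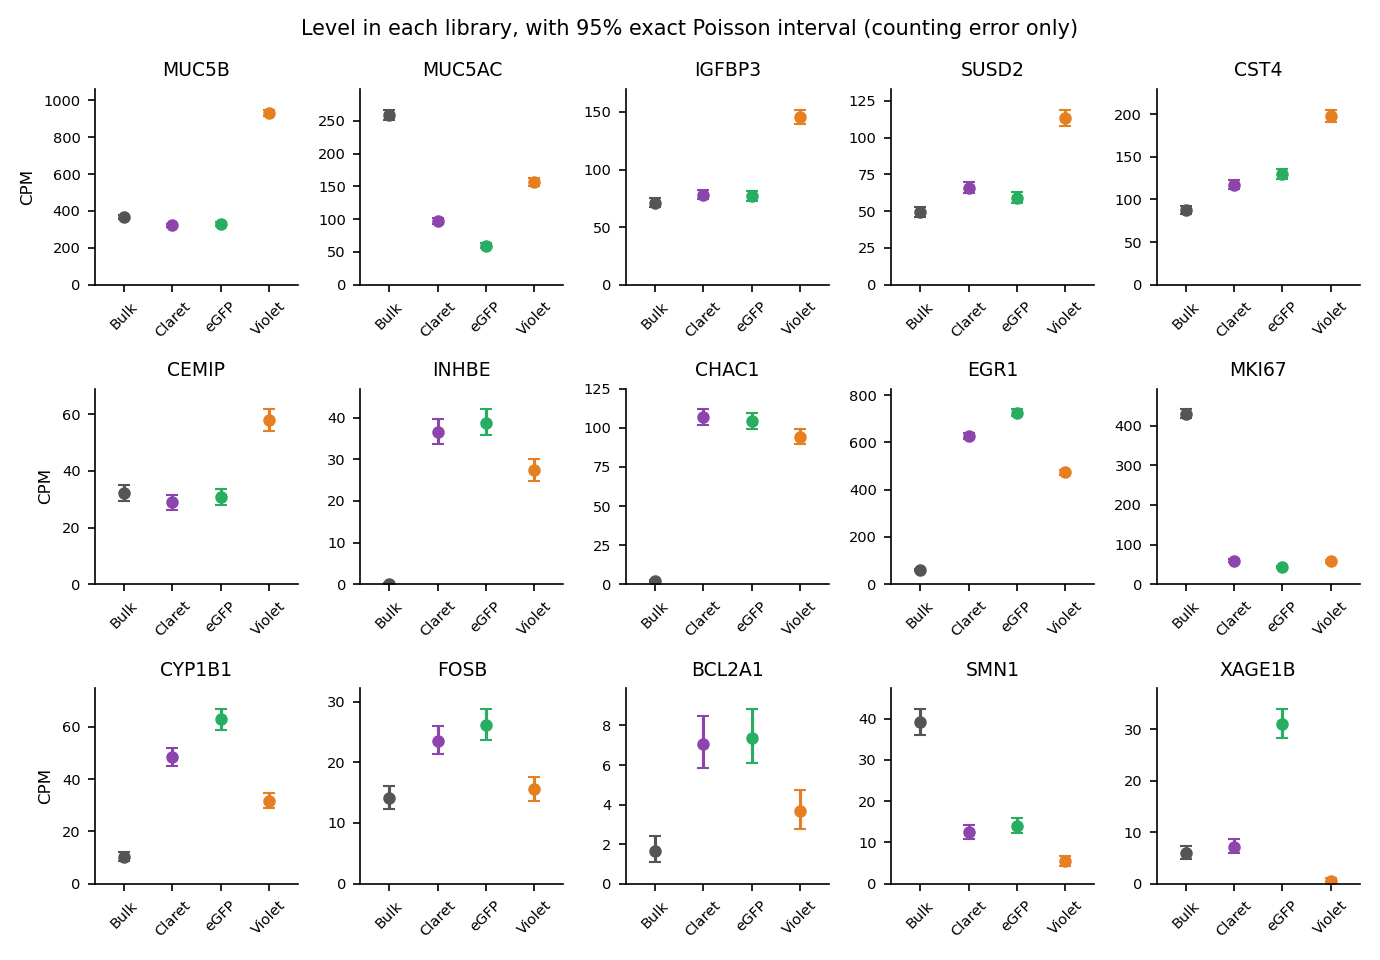
Level in CPM of 15 genes in Bulk, Claret, eGFP and Violet (1 library each), with 95% exact Poisson intervals that cover counting error only. Violet stands alone above the others for MUC5B (933 CPM), IGFBP3, SUSD2, CST4 and CEMIP. For INHBE, CHAC1 and MKI67 it lies far nearer the other slow-cycling libraries than Bulk, though below both for INHBE and CHAC1. For EGR1, CYP1B1 and BCL2A1 it lies between Bulk and the others.

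Called against Bulk in Violet, with log2 ratios under 0.5 in size in both Claret and eGFP, were 16 of the 12480 protein-coding genes. This contrast of calls is not a test between the slow-cycling libraries, for which the direct comparisons serve. Beside MUC5B, IGFBP3, WFIKKN1 and CNTNAP3C, the 8 with the largest direct ratios were C20orf144 (18 reads in Bulk and 6 in Violet), the photoreceptor disc protein ROM1 (34 and 13), the linker histone HIST1H1C (51 and 21) and the cadherin CDH10 (11 and 28). The reverse, called in both Claret and eGFP and under 0.5 in Violet, held for 8. PTHLH, the parathyroid hormone-related protein, had 7 reads in Bulk against 22 in Claret, 32 in eGFP and 10 in the Violet library, the clock repressor PER2 108, 53, 48 and 86, and the collagen-linked secreted protein CTHRC1 25, 9, 11 and 20. The others were ISM1, TMEM110-MUSTN1, PTGES3L, SH2D2A and S100A5, each with 41 reads or fewer in every library. IGFBP3, ROM1, CDH10, PER2, CTHRC1, SH2D2A and S100A5 were called in neither direct comparison at 2-fold.

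Small shifts that ran through whole lists, rather than single calls, were also seen between Violet and 1 or both of the other slow-cycling libraries. Violet did not stand apart from both in each list. The median log2 ratio over Bulk of ATF4 and CHOP targets was 2.01 in Violet, 2.07 in Claret and 1.82 in eGFP. For the cytosolic aminoacyl-tRNA synthetases it was 0.62, 0.76 and 0.61. All 78 ribosomal protein genes had log2 ratios of Violet below 0 over Claret and over eGFP, with medians of -0.18 and -0.15, beside -0.01 for all genes in both comparisons. None of them was called. Under the other settings of scaling, filter, prior count and GC correction, the medians lay between -0.20 and -0.15 over Claret and between -0.16 and -0.12 over eGFP. FPKM and the treatment field are left out of these ranges. RPL3, for instance, had 27135 reads in Bulk against 59016 in Claret, 54983 in eGFP and 45037 in the Violet library, so the level in Violet was between Bulk and the others. That position did not hold throughout, since in 15 of the 78 genes Violet was below Bulk too. Genes of 1 list share their control and their library, so these counts are a description of the 4 libraries.

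Mitosis genes were centred on 0 in Violet over Claret, with a median of 0.00 and 20 of 40 ratios on each side of 0. The median lay between -0.03 and 0.03 under the other settings of scaling, filter, prior count and GC correction, with FPKM and the treatment field left out. Against eGFP 38 of the 40 were above 0, with a median log2 ratio of 0.27 and none called. BIRC5, with 272 reads in eGFP and 410 in Violet (0.60), and the spindle gene ASPM, with 575 and 884 (0.63), lay near the upper end of that shift (maximum 0.70). Replication genes lay slightly below Claret (median -0.17, 35 of 42 below 0) and slightly above eGFP (0.08, 30 of 42 above 0).

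The 20 cytosolic aminoacyl-tRNA synthetases all had ratios below 0 over Claret, with a median of -0.15, and 17 had them over eGFP, with -0.08. ATF4 and CHOP targets were below 0 in 26 of 32 against Claret (-0.12) and in 20 of 32 against eGFP (-0.06). INHBE, with 431 reads in Violet, 620 in Claret and 615 in eGFP, was at -0.42 and -0.50. Cholesterol genes were below 0 over eGFP in 22 of 23 (median -0.15), and glycolysis and hypoxia genes above 0 over Claret in 29 of 34 (0.12), with NDRG1 at 0.63 and CA9, which had 120 reads in Claret and 198 in Violet, at 0.81. No member of these 4 lists was called in either direct comparison.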

How the data were processed

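RNA libraries made with the NEBNext Ultra kit from 1.0 µg of total RNA, per the labels' protocols, were sequenced, 1 library for each of 4 groups. The deposited table holds whole-number read counts per gene, with HISAT2 2.0.5 and featureCounts 1.5.0-p3 named per the submitters' processing notes, and FPKM values computed by the authors. The genome build, the strand setting and how multiply matching reads were counted are not given in the sources used here. Gene positions equal those of GENCODE 29 (GRCh38) for 58724 of 58735 genes.

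Counts were scaled by TMM (edgeR 4.0.16 in R 4.3.3), and genes with a mean of at least 1 CPM by library totals were kept. Log2 ratios used a prior count of 2. Reads of each library pair were compared by an exact binomial test with Benjamini-Hochberg adjustment over all 14585 genes, with 95% Clopper-Pearson intervals. For a gene at 0 reads in Bulk, its fold was computed against a floor of 3 reads and leaves out counting error in Violet. Because a single library leaves no degrees of freedom for a spread, edgeR's quasi-likelihood test could not be fitted and no test between conditions was run. Scripts were tested on simulated counts and used Python 3.11.15, numpy 2.4.6, pandas 2.3.3, scipy 1.17.1 and matplotlib 3.10.9.

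The named genes were the 12 higher and 12 lower protein-coding genes with the interval bound farthest from 0, every gene called the same way against Claret and eGFP, up to 4 called members of each list and the FOS and JUN genes, up to 8 genes each way that only Violet or only the others called against Bulk, MKI67, TOP2A and the 6 most-read genes. Other genes were named after their values were seen. The members and the 24 lists, with 632 distinct symbols of which 631 matched (2 by an older symbol), were chosen with earlier results of these data known. Alternatives were library totals, DESeq2 1.42.0 size factors, no filter and a filter at 10 CPM, a prior count of 0.5, limits of 1.5-fold and 4-fold, assumed coefficients of variation of 0.1 and 0.2, the authors' FPKM as log2(FPKM + 1), a GC correction (14581 genes), sums over copies, protein-coding genes alone and groups from the treatment field. Shared sequence was the share of a gene's 31-base words found in another annotated gene. Promoter windows were taken from genes outside chromosomes 8 and 18.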

Additional observations from a re-analysis of the deposited data

Results flagged for a closer look

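At 30 genes the Violet library differed, by the exact test on the reads of each library pair, from both Claret and eGFP by at least 2-fold in 1 direction, so that its difference from Bulk departed from theirs. For each gene the smaller in size of the 2 direct log2 ratios is given. Above both were RPL29P11 at 2.58, RGPD6 at 1.64, CNTNAP3C at 1.63, MUC5B at 1.5, SPDYE6 at 1.43, ISM1 at 1.40, AC072022.2 at 1.37, AP001000.1 at 1.25, AC099677.1 at 1.23, PDZK1 at 1.20, RRN3P3 at 1.19, FAM157C at 1.16, AC083843.2 at 1.15, AC145124.1 at 1.13, AP000766.1, TNXA, WFIKKN1 and Z95331.1 at 1.10 each, SCART1 at 1.09 and ALOX12P2 at 1.01.

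Below both were XAGE1B at -3.40, AC011330.1 at -2.08, SNORA66 at -1.86, HERC2P3 and AC092910.3 at -1.32 each, SMN1 at -1.18, TMEM110-MUSTN1 at -1.15, GPR15 at -1.10, AC091982.3 at -1.07 and LINC00997 at -1.05. Of the genes above, 12 were also called above Bulk, 1 (AC083843.2, with 72 reads in Bulk against 6 in Claret, 13 in eGFP and 31 in the Violet library) was called below it and 7 were not called. Of those below, 4 were also called below Bulk.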

How the results depend on the processing

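No paired analysis was possible because each group is 1 library, and for the same reason no library could be left out. The counts of genes stayed within 1.5 times under library totals, DESeq2 size factors, a prior count of 0.5, no filter and GC correction, and those of genes apart from both slow-cycling libraries also with summed copies. DESeq2 size factors ended the calls of AC083843.2, ALOX12P2 and Z95331.1, and so did the absence of a filter, which also ended those of AC091982.3, AC092910.3 and TMEM110-MUSTN1. Higher than Bulk were 608 genes with a 10 CPM filter, 2969 at 1.5-fold, 399 at 4-fold, 961 with a coefficient of variation of 0.2, 533 on log2(FPKM + 1) and 42 with groups from the treatment field. All counts on FPKM rest on the size of the difference alone, without the test. Lower were 2469 at 1.5-fold, 182 at 4-fold, 620 at a coefficient of 0.2 and 106 by the treatment field. Above both slow-cycling libraries were 2 genes at 10 CPM, 60 at 1.5-fold, 1 at 4-fold, 3 and 1 at coefficients of 0.1 and 0.2, 4 on FPKM, 41 by the treatment field and 8 among protein-coding genes. Below both were 2, 21, 2, 2 and 1, 4, 16 and 4. With groups from the treatment field 56 list medians moved by at least 0.1 and 16 did not. On log2(FPKM + 1) 13 moved and 59 did not. Each of the other settings tried on the lists moved 3 or fewer.

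On log2(FPKM + 1) 50 single values kept their direction but lost their call, and 43 stayed the same. With groups from the treatment field 43 lost their call in the same way and 8 stayed the same. Groups from the treatment field reversed 42 single values, since they exchange the libraries. Over Bulk these were MOV10L1 -0.42, NUPR1 -0.0755, GDF15 -0.23, SPX -0.23, FAM111B 0.24, E2F8 0.27, RAD54L 0.15 and FEN1 0.0288. Over Claret they were MUC5B -0.16, RPL29P11 -1.20, SPDYE6 -0.72, AC083843.2 -2.32, AP000766.1 -0.26, RRN3P3 -1.26, ISM1 -1.44, PDZK1 -0.54, Z95331.1 -1.44, RGPD6 -1.31, AC099677.1 -0.27, XAGE1B 2.37, HERC2P3 0.38, LINC00997 0.35, GPR15 0.64, SNORA66 0.41, AC091982.3 1.24, TMEM110-MUSTN1 1.41 and AC092910.3 0.90. Over eGFP they were AP001000.1 -0.0385, SCART1 -0.0111, RPL29P11 -0.0106, AP000766.1 -0.22, TNXA -0.33, RGPD6 -0.27, AC145124.1 -0.22, AC072022.2 -0.0255, SMN1 0.17, XAGE1B 2.09, HERC2P3 0.0038, LINC00997 0.17, GPR15 0.0611, AC011330.1 0.38 and TMEM110-MUSTN1 0.16. At 44 reads, the median of the genes above both, counting error alone is wide, and the spread between cultures was not measured.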

Other observations

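The share of genes called in Violet against Bulk is given by gene type, with no test of the differences between types. Of 470 lincRNA genes 141 (30%) were called higher and 13 (2.77%) lower, with a median log2 ratio of 0.58, and of 566 antisense genes 124 (21.9%) were higher and 28 (4.95%) lower, with a median of 0.39. Of 12480 protein-coding genes 1203 (9.64%) were higher and 912 (7.31%) lower, with a median of -0.04, and of 303 processed pseudogenes 21 (6.93%) were higher and 25 (8.25%) lower. AL365181.2 had 26 reads in Bulk against 292 in Claret, 299 in eGFP and 326 in the Violet library (3.55). AC127496.5 had 0, 28, 36 and 35, in Violet 11.6-fold higher when set against 3 reads in Bulk. These genes were named after their values were seen, and without known strand antisense reads cannot be told apart from those of the overlapping gene.

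Among the 43 genes kept that the deposited table assigns to its bZIP class, which does not hold the C/EBP genes, 10 (23.3%) were called higher than Bulk and 1 (2.33%) lower, beside 11.3% and 7.01% of all genes. JDP2, a JUN dimerisation partner (1.79), and CREB5 (1.02) were among those called higher, as were ATF3, ATF4 and DDIT3. ATF5 had 263 reads in Bulk against 97 in Claret, 89 in eGFP and 71 in the Violet library (-1.86). The lowest ratio of all genes was that of NSFP1, an unprocessed pseudogene, with 217, 3, 2 and 2 reads (-5.79). How reads that match more than 1 gene were counted is not given, which limits the reading of this value.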
